A study of Mus musculus with 6 samples.

Results

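Genes of MHC class II antigen presentation and co-stimulation were followed in group 2 innate lymphoid cells (ILC2s) with and without deletion of the mechanosensitive ion channel gene Piezo1. They were chosen by name: H2-Aa, H2-Ab1, H2-Eb1, H2-DMa, H2-DMb1, Cd74, Ciita, Cd80 and Cd86. All 9 were found among the 18057 genes of the deposited table. ILC2s were sorted from the lungs of mice given 3 intranasal injections of 1 µg IL-33, and were then kept in culture for 24 h with 10 ng/mL of IL-2 and 10 ng/mL of IL-7. The controls are labelled with the genotype Il7rcre and the Piezo1_KO group with Il7rcrePiezo1flx, so both groups carry the Il7r-driven Cre, which is not restricted to ILC2s, although the sample titles call the controls WT. Each group had 3 libraries. The labels give neither the age of the mice nor whether replicates are different mice, so the p-values speak only of the spread among these libraries, which may be technical.

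Class II molecules are heterodimers of an alpha and a beta chain that display peptides from endosomes to CD4+ T cells. The invariant chain, encoded by Cd74, guides new heterodimers to the endosome, where DM exchanges its remnant for peptide and DO restrains DM. CIITA is the coactivator that switches on this gene set, working through proteins bound to conserved X and Y boxes in the promoters. CD80 and CD86 are the ligands through which an antigen-presenting cell engages CD28 and CTLA-4 on a T cell. ILC2s are known to carry class II and co-stimulatory ligands at low levels and to present antigen to T cells.

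The promoters of the class II genes are shown because the boxes are what CIITA-dependent promoters have in common. Their part in the levels given below was not tested. RefSeq promoter windows (GRCm38.p6, 250 bases before to 50 after a start) were given for 5 of the 9 genes. The letters TGATTGG, which hold the Y box core, were searched on both strands and were found in 3 of these 5 genes (H2-Aa, H2-Eb1 and H2-DMb1), and in 7.817% of all 32851 windows of that length. The letters AGNAAC, then any 2 bases, then ATG, an X box core written after these sequences had been read, were found in H2-Eb1 and H2-DMb1, and in 0.895% of all windows. Both motifs stood together in 0.0731% of windows, and their letters do not overlap. Because the X motif was written after reading these sequences, its shares of windows are a description with no test. Outside the 9 genes, the windows of H2-DMb2 and H2-Oa held the Y motif alone, and those of H2-Ob and H2-Eb2 held both, of which H2-Ob is shown because it was also tested here. The next lines give the stretch from 120 bases before the start for H2-Aa (chr17:34287844-34287943, minus strand), H2-Eb1 (chr17:34305747-34305846, plus strand) and the DO beta gene H2-Ob (chr17:34238785-34238884, plus strand), with both motifs in capitals.
H2-Aa: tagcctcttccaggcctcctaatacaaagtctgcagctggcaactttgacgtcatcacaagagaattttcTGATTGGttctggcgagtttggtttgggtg
H2-Eb1: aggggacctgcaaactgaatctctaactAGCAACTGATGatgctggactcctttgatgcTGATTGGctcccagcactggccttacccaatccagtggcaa
H2-Ob: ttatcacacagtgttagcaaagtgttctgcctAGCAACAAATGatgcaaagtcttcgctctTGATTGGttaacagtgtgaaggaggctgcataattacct
The Y motif began 50, 61 and 59 bases before the start in H2-Aa, H2-Eb1 and H2-Ob. In H2-Eb1, H2-DMb1 and H2-Ob, 20, 21 and 18 bases separated the X motif from the Y motif, and both read in the direction of the gene. Neither motif was found in the windows of H2-DMa and Cd80, which says only that these letters are not there.

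The libraries held between 13059046 and 33459904 estimated counts. Piezo1 was at 247, 278 and 160 CPM (the usual depth-scaled count, with TMM factors between libraries) in control replicates 1, 2 and 3 and at 150, 109 and 122 CPM in Piezo1_KO replicates 1, 2 and 3, lower in every Piezo1_KO library without passing the test (log2 fold change −0.85 ± 0.21 (SE), adjusted p = 0.112 by edgeR's quasi-likelihood method, Benjamini-Hochberg adjusted over 14149 genes). All 16 ILC2 markers looked for were in the table, and their summed level was 13259 to 14054 CPM in control and 14846 to 15890 CPM in Piezo1_KO libraries. Most of that sum came from Il5 and Il2ra, with means of 4038 and 3469 CPM in control and 5159 and 4318 CPM in Piezo1_KO. Of the 16 markers, 9 had positive and 7 had negative log2 fold changes. Gata3, a negative one, was at 986 ± 42.9 and 737 ± 46.2 CPM (SD, n = 3). Its groups did not overlap, and it did not pass (adjusted p = 0.0612, edgeR). Il7r fell from a mean of 66.8 ± 8.25 to 32.8 ± 2.03 CPM (SD, n = 3, adjusted p = 0.00722, edgeR). Icos fell by 0.61 ± 0.09 on the log2 scale and Il17rb rose by 0.74 ± 0.10 (adjusted p = 0.0168 and 0.0136, edgeR). Il7r, Icos and Il17rb passed in 9, 7 and 7 of 12 alternative fits. The groups did not overlap in 11 of the 16 markers, against 20.6% of all tested genes, of which 1.51% passed. In bulk RNA, fewer cells of a type and less RNA per cell cannot be told apart.

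The 9 genes split into 8 with a higher mean and 1, Cd86, with a lower mean in Piezo1_KO. None passed an adjusted p of 0.05 (0 of 9, edgeR), where 1.51% of all 14149 tested genes did, 1% as higher and 0.509% as lower in Piezo1_KO. At an unadjusted p under 0.05 there were 6 of 9, of which 5 were positive, against 13.2% of all tested genes. The groups did not overlap in 7 of the 9, which held for 20.6% of all tested genes. Of these 7, 6 were higher in Piezo1_KO (10.1% of all tested genes) and 1 was lower (10.5%). The median log2 fold change of the 9 was 0.50, against 0.02 over all tested genes, of which 53% were positive. DESeq2 called 1 of the 9 (H2-Ab1), limma-voom with sample weights called 2 (H2-Ab1 and H2-Eb1), and edgeR called 2 (H2-Ab1 and Cd80) without control replicate 2. The 8 positive signs were kept in all 12 alternative fits, and the negative sign of Cd86 in the 10 that gave it an adjusted p.

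**Figure D1:**
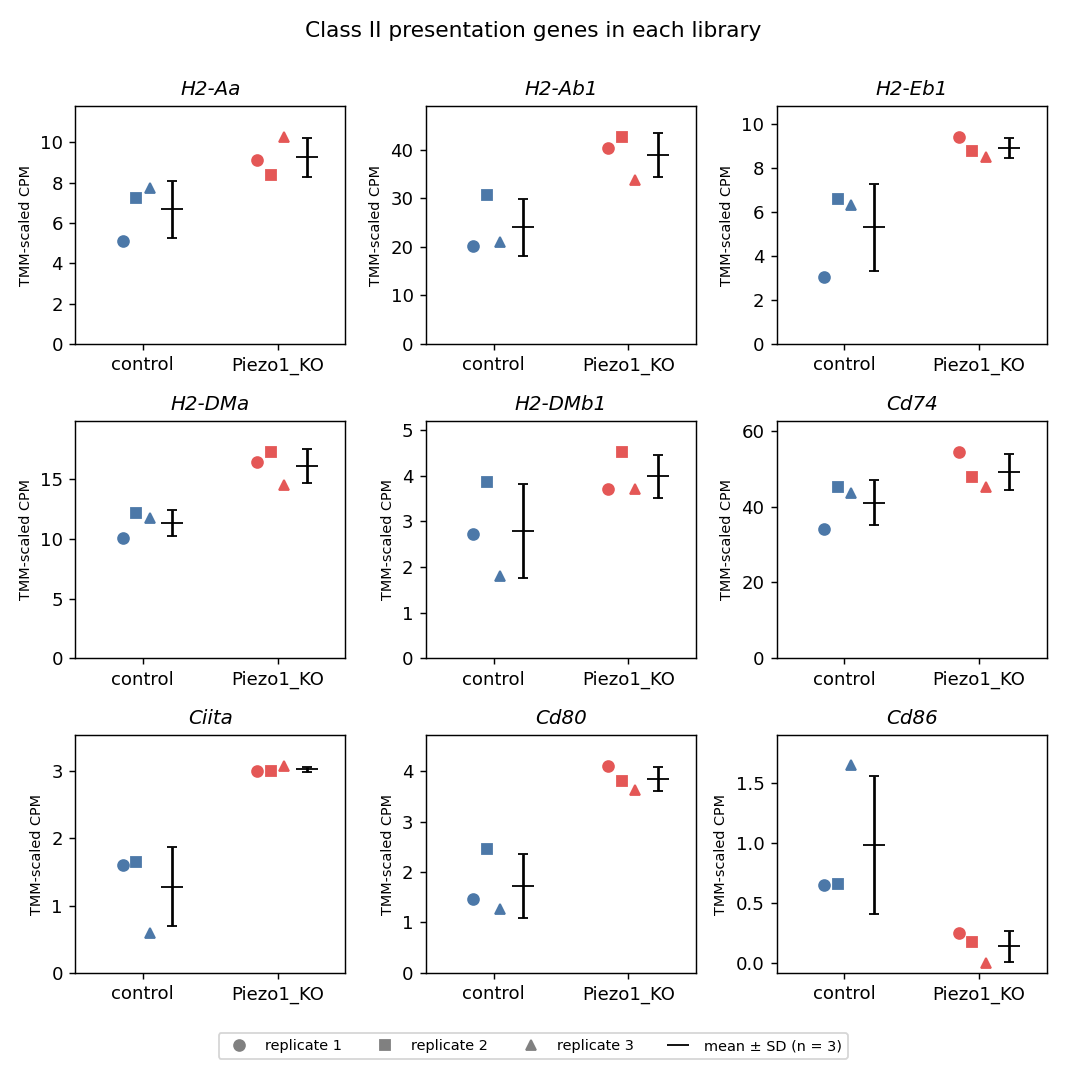
TMM-scaled CPM of the 9 genes (vertical axes, from 0 or just below it for Cd86) in the 3 control and 3 Piezo1_KO libraries. Points are libraries, marker shapes are replicate numbers and the black bars give the mean ± SD (n = 3). The groups overlap in H2-DMb1 and Cd74, and Cd86 is the gene with the lower Piezo1_KO values.

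The classical chain genes sit together on chromosome 17. H2-Ab1, the beta chain of the A heterodimer (chromosome 17, 34257689 to 34269419 in mm10, plus strand), was at 20.1, 30.7 and 21.1 CPM in control replicates 1, 2 and 3 and at 40.4, 42.5 and 33.7 CPM in Piezo1_KO replicates 1, 2 and 3. Every Piezo1_KO library was above every control library, with control replicate 2 the nearest. The means were 24.0 ± 5.84 and 38.9 ± 4.60 CPM (SD, n = 3), a fitted ratio of 1.61-fold. The log2 fold change was 0.69 ± 0.18 (SE), with a 95% interval of 0.28 to 1.10, and did not pass (adjusted p = 0.132, edgeR). Its adjusted p was 0.0158 in DESeq2, 0.0288 in limma-voom and 0.0138 in edgeR without control replicate 2, so the call rests on the tool and on that control library.

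H2-Aa, the alpha chain of the same heterodimer (chromosome 17, 34282744 to 34287823, minus strand), was at 5.08, 7.23 and 7.72 CPM in control and 9.13, 8.36 and 10.3 CPM in Piezo1_KO libraries. The groups again did not overlap, with a gap from 7.72 to 8.36 CPM between them. Its log2 fold change was 0.47 ± 0.21 (95% interval −0.01 to 0.95, adjusted p = 0.385, edgeR), which also did not pass in any of the 12 alternative fits. Leaving out control replicate 1, its lowest library, lowered the estimate to 0.31 ± 0.19.

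H2-Eb1, the beta chain of the E heterodimer (chromosome 17, 34305867 to 34316674, plus strand), was at 3.02, 6.57 and 6.30 CPM in control and 9.38, 8.78 and 8.50 CPM in Piezo1_KO libraries. Control replicate 1 was the lowest, with 60 counts, while the 3 Piezo1_KO libraries differed little. Its log2 fold change was 0.75 ± 0.29 (95% interval 0.08 to 1.41, adjusted p = 0.315, edgeR). Limma-voom, which weights libraries by their quality, gave 1.17 ± 0.26 with an adjusted p of 0.0485, over 1.5 times the edgeR estimate. Without control replicate 1, the lowest library, edgeR gave 0.46 ± 0.19 with an adjusted p of 0.393.

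Cd74, the invariant chain gene (chromosome 18, 60803848 to 60812652, plus strand), was the most abundant of the 9 in CPM. It was at 34.2, 45.2 and 43.5 CPM in control and 54.4, 47.8 and 45.2 CPM in Piezo1_KO libraries. Control replicate 2 and Piezo1_KO replicate 3 were nearly level, so the groups met and the lowest values came from control replicate 1. The log2 fold change of 0.26 ± 0.13 (95% interval −0.04 to 0.57, adjusted p = 0.463, edgeR) was the smallest of the 9, and the interval excludes a change of 1 log2 unit in either direction. Leaving out control replicate 1 gave 0.15 ± 0.12, and leaving out Piezo1_KO replicate 1 gave 0.18 ± 0.14.

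The DM genes encode the peptide exchange factor of the endosome. H2-DMa, its alpha chain (chromosome 17, 34119541 to 34139101, plus strand), was at 10.1, 12.2 and 11.8 CPM in control and 16.4, 17.3 and 14.5 CPM in Piezo1_KO libraries. The groups did not overlap, and the log2 fold change was 0.50 ± 0.14 (95% interval 0.17 to 0.84, adjusted p = 0.171, edgeR). Exons of H2-DMa overlap those of Brd2 on the opposite strand. Brd2, a bromodomain protein gene, had means of 240 ± 22.9 and 234 ± 10.7 CPM (SD, n = 3) in these groups, and no source used here says whether the counting used strand.

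H2-DMb1, the beta chain of DM (chromosome 17, 34153072 to 34160230, plus strand), was at 2.72, 3.85 and 1.80 CPM in control and 3.72, 4.53 and 3.72 CPM in Piezo1_KO libraries. Control replicate 2 lay above 2 of the 3 Piezo1_KO libraries, so the groups overlapped. The fitted difference was a log2 fold change of 0.49 ± 0.31 (95% interval −0.22 to 1.21, adjusted p = 0.565, edgeR). The estimate was 0.27 ± 0.27 without control replicate 3 and 0.78 ± 0.27 without control replicate 2. H2-DMb2 is a close copy of H2-DMb1, and how the authors divided shared reads between them is uncertain. H2-DMb2 itself had a log2 fold change of 0.15 ± 0.45.

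Ciita, the master coactivator (chromosome 16, 10480059 to 10528418, plus strand), was scarce. It had 32, 55 and 8 counts in control replicates 1, 2 and 3 and 71, 87 and 72 counts in Piezo1_KO replicates 1, 2 and 3, or 1.61, 1.64 and 0.600 CPM against 3.00, 3.01 and 3.08 CPM. The Piezo1_KO libraries were almost level and all above the controls, of which replicate 3, the shallowest library, was lowest. In the fit its log2 fold change was 1.20 ± 0.39 (95% interval 0.31 to 2.08, adjusted p = 0.224, edgeR), and it did not pass in any of the 12 alternative fits. Exons of Ciita overlap those of Dexi on the opposite strand, and Dexi had the opposite sign (−0.28 ± 0.10 log2, adjusted p = 0.289, edgeR).

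**Figure D2:**
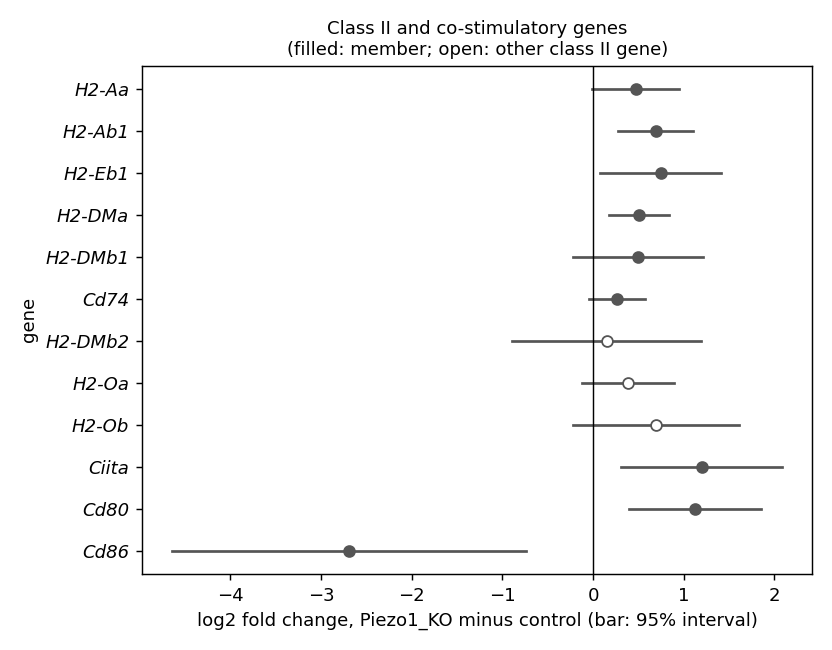
Log2 fold change of each gene, Piezo1_KO minus control (horizontal axis), with its 95% interval from the edgeR fit. Filled points are the 9 genes and open points are 3 other class II genes. Cd86 stands alone below zero with the widest interval. Of the 9 genes, the intervals of H2-Aa, H2-DMb1 and Cd74 cross zero, and so do those of all 3 other class II genes.

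CD80 and CD86 bind the same receptors, and their transcripts differed in direction. Cd80 (chromosome 16, 38455561 to 38496335, plus strand) was at 1.46, 2.45 and 1.27 CPM in control and 4.10, 3.80 and 3.63 CPM in Piezo1_KO libraries. Every Piezo1_KO library was above every control library. The log2 fold change was 1.13 ± 0.32 (95% interval 0.40 to 1.85, adjusted p = 0.160, edgeR), and it passed without control replicate 2, the highest control (1.46 ± 0.27, adjusted p = 0.0298, edgeR).

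Cd86 (chromosome 16, 36603869 to 36666081, minus strand) had 13, 22 and 22 counts in control replicates 1, 2 and 3 and 6, 5 and 0 counts in Piezo1_KO replicates 1, 2 and 3. On the CPM scale these are 0.654, 0.657 and 1.65 CPM in control and 0.254, 0.173 and 0 CPM in Piezo1_KO libraries. The count of 0 allows up to 0.128 CPM as a limit of 3 counts, and the two-sided 95% Poisson interval that is plotted reaches 0.158 CPM, both for counting error only. Control replicate 3 was well above the other controls, and the groups did not overlap. The log2 fold change was −2.69 ± 0.85 (95% interval −4.64 to −0.74), the largest of the 9 in size and the least precise, and did not pass (adjusted p = 0.212, edgeR).

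The opposite directions of the pair can also be read as the share of Cd80 in each library. Cd80 made up 69.0%, 78.8% and 43.6% of the summed Cd80 and Cd86 counts in control replicates 1, 2 and 3, with exact 95% binomial intervals of 52.9% to 82.4%, 69.7% to 86.2% and 27.8% to 60.4%. In Piezo1_KO replicates 1, 2 and 3 it made up 94.2%, 95.7% and 100%, with intervals of 87.8% to 97.8%, 90.1% to 98.6% and 95.8% to 100%. The intervals are for counting error only, not the spread between libraries. Reads without molecular identifiers are not independent molecules, so the intervals may be too narrow even for counting error. The share restates the values of both genes, neither of which passed, and was computed after they had been seen, so it is a description with no test.

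Transcripts of myeloid cells, which carry much CD86, mostly had lower means in Piezo1_KO as Cd86 did. Of 12 macrophage and monocyte markers in the table, 6 were tested, 0 rose, 0 fell and 5 were negative (all but Cd68, at 0.61), with a median log2 fold change of −1.21. Csf1r, the receptor of macrophage growth factors, was at 1.06, 1.05 and 1.12 CPM in control and 0, 0.380 and 0.128 CPM in Piezo1_KO libraries (log2 fold change −2.56 ± 0.81, adjusted p = 0.209, edgeR). Its estimate lay between −3.96 and −2.04 in the 12 alternative fits, and it did not pass in any of them. Lyz2, the macrophage and neutrophil lysozyme, was at 1.06, 1.55 and 6.75 CPM in control and 0.380, 1.35 and 0.342 CPM in Piezo1_KO libraries. Control replicate 3 was highest for Lyz2 and for Cd86. That library was also highest for Mrc1, Chil3, Cx3cr1, Itgam and, by little, Csf1r. Adgre1, C1qb and C1qc had 0 counts there, and Cd68, Cd14 and Ly6c2 were highest in other libraries.

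The summed level of all 12 myeloid markers was 11.02 to 24.5 CPM in control and 7.19 to 14.7 CPM in Piezo1_KO libraries, which overlap. C1qb and C1qc, complement genes of tissue macrophages, had 0 counts in 3 and 4 of the 6 libraries. Of 8 dendritic cell markers 5 were tested and 0 passed, and the summed level was 137 to 157 CPM in control and 144 to 164 CPM in Piezo1_KO, most of it from Bst2, Ccr7 and Xcr1. Itgax, Flt3 and Zbtb46, which define dendritic cells better, were each under 1 CPM in all libraries. The part of myeloid cells in the Cd86 difference was not tested.

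**Figure D3:**
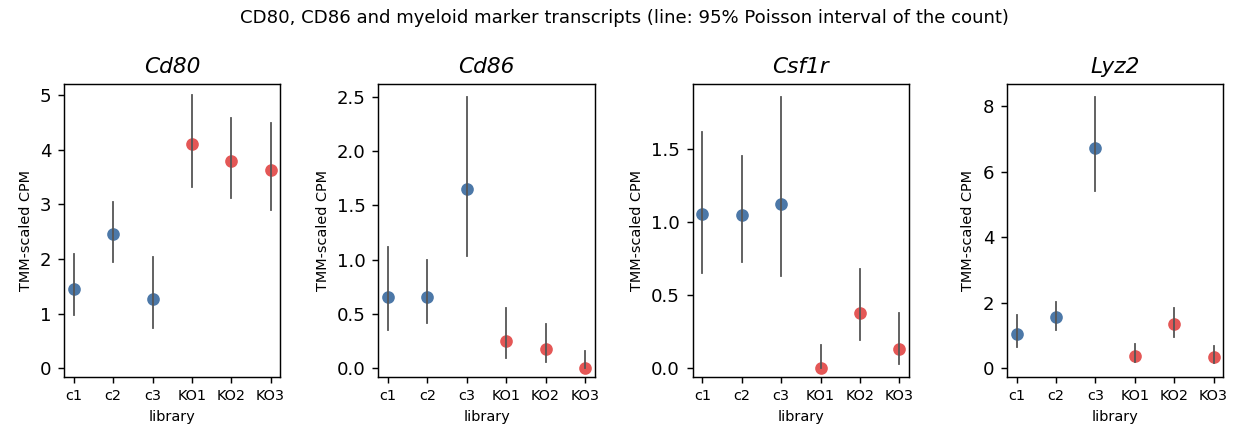
TMM-scaled CPM (vertical axes) of Cd80, Cd86 and the myeloid markers Csf1r and Lyz2 in control replicates 1 to 3 (c1 to c3) and Piezo1_KO replicates 1 to 3 (KO1 to KO3), with 95% Poisson intervals of the counts as lines. Cd80 is higher and Cd86 and Csf1r are lower in all 3 Piezo1_KO libraries, and c3 is the highest library for Cd86 and Lyz2.

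B cells are the other lymphocytes rich in class II. Of 6 B cell markers in the table, 3 were tested, 1 rose and 0 fell, with 2 positive and 1 negative (Cd22, at −0.18 ± 0.61). The summed level of the 6 was 35.5 to 41.0 CPM in control and 81.1 to 105 CPM in Piezo1_KO libraries. Nearly all of that sum came from Ighm and Cd79b, and most of its rise from Ighm. Ighm, the IgM heavy chain gene, rose from a mean of 18.6 ± 4.40 to 64.9 ± 10.7 CPM (SD, n = 3), with an adjusted p of 0.00473 in edgeR, or 0.0594 without control replicate 1. Cd79b, a B cell receptor signalling chain, was at 17.9 ± 1.18 and 23.9 ± 2.21 CPM (SD, n = 3). Its partner Cd79a, which defines the lineage, had 1 to 4 counts in each library, and Igkc, the kappa light chain gene, was between 0.119 and 0.726 CPM. Ms4a1 and Pax5 were not analysed here. The part of B cells in the class II difference was not tested.

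Alveolar type II cells also carry class II. Of 6 lung epithelial markers 5 were tested, 0 rose, 0 fell and 4 were positive, and their summed level was 28.6 to 32.6 CPM in control and 35.4 to 37.8 CPM in Piezo1_KO libraries. Cdh1, the epithelial cadherin, had means of 0.840 ± 0.152 CPM in the controls and 0.117 ± 0.108 CPM after deletion (SD, n = 3, log2 fold change −2.79 ± 0.76, adjusted p = 0.151, edgeR), and Lamp3 stayed under 1 CPM in every library. Their part in the class II levels was not tested. Of 7 T cell markers 6 were tested, 1 rose and 0 fell. The summed level was 199 to 212 CPM in control and 164 to 199 CPM in Piezo1_KO, most of it from Bcl11b. Cd3e, the signalling chain of the T cell receptor complex, was at 2.83 ± 0.41 and 1.20 ± 0.37 CPM (SD, n = 3). The T cell marker that rose was Lck, with means of 13.2 ± 1.95 and 37.6 ± 4.34 CPM (SD, n = 3) and an adjusted p of 0.00384 in edgeR.

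Set per kilobase of exon, the order of the 9 genes could be compared. The length was that of all annotated exons of a gene merged, such as 1679 bases for Cd74, 3798 for H2-Aa and 9535 for Ciita. It can exceed the length of the transcripts present, so the order holds for this measure only. In control libraries Cd74 stood first at 24.4 ± 3.54 CPM per kilobase, followed by H2-Ab1 at 9.33 ± 2.27 (SD, n = 3), and the ranges of these did not meet. H2-DMa at 3.29 ± 0.32, H2-Eb1 at 2.72 ± 1.02, H2-Aa at 1.76 ± 0.37 and H2-DMb1 at 1.66 ± 0.61 CPM per kilobase came next, and each of these neighbours overlapped the next. Cd80 at 0.467 ± 0.171, Cd86 at 0.269 ± 0.157 and Ciita at 0.135 ± 0.062 CPM per kilobase were lowest. Cd80 and Cd86 overlapped, while the lowest control value of Cd86, 0.179, lay just above the highest of Ciita, 0.172. In Piezo1_KO libraries Cd74 was at 29.3 ± 2.84, H2-Ab1 at 15.1 ± 1.79, H2-DMa at 4.66 ± 0.42 and H2-Eb1 at 4.57 ± 0.23 CPM per kilobase (SD, n = 3). H2-Aa at 2.43 ± 0.25 and H2-DMb1 at 2.37 ± 0.28 followed, then Cd80 at 1.04 ± 0.064, Ciita at 0.318 ± 0.004 and Cd86 at 0.039 ± 0.035 CPM per kilobase. Cd86 thus stood above Ciita in the control means and below it in Piezo1_KO, where these 2 genes did not overlap.

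The 3 classical chain genes, both DM genes and Cd74 were summed within each library. The sum was 75.2, 106 and 92.1 CPM in control and 133, 129 and 116 CPM in Piezo1_KO libraries. Within that sum Cd74 took 45.1 ± 2.22% in control and 38.9 ± 1.89% in Piezo1_KO (SD, n = 3), and its highest Piezo1_KO share, 40.8%, was below its lowest control share, 42.8%. H2-Ab1 took 26.2 ± 3.11% and 30.7 ± 1.95%. H2-Aa, H2-DMa and H2-DMb1 kept shares whose means differed by less than their SD. Control replicate 1 was the lowest library for 5 of the 9 genes (H2-Aa, H2-Ab1, H2-Eb1, H2-DMa and Cd74) and control replicate 3 for 3 (H2-DMb1, Ciita and Cd80).

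The class II genes tested on chromosome 17 lie in 224.3 kb between H2-Oa and H2-Eb1, interleaved with other genes. All 8 class II genes tested there had positive log2 fold changes (median 0.50) and all 5 other tested genes had negative ones (median −0.28), with 0 of the 13 past the threshold (edgeR). The DO genes H2-Oa and H2-Ob were at 0.38 ± 0.22 and 0.70 ± 0.40 (adjusted p = 0.522 and 0.520, edgeR), with means for H2-Oa of 4.94 ± 1.08 and 6.47 ± 0.292 CPM (SD, n = 3). Between H2-DMb1 and H2-Ob sit Psmb9, Tap1, Psmb8 and Tap2, immunoproteasome subunits and peptide transporter chains that serve class I presentation. Their log2 fold changes were −0.28 ± 0.10, −0.39 ± 0.10, −0.29 ± 0.11 and −0.23 ± 0.10. Brd2, the remaining other gene, was at −0.04 ± 0.10 and the class II gene H2-DMb2 at 0.15 ± 0.45, both within their SE of zero. The span was chosen after the values of the 9 genes had been seen.

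**Figure D4:**
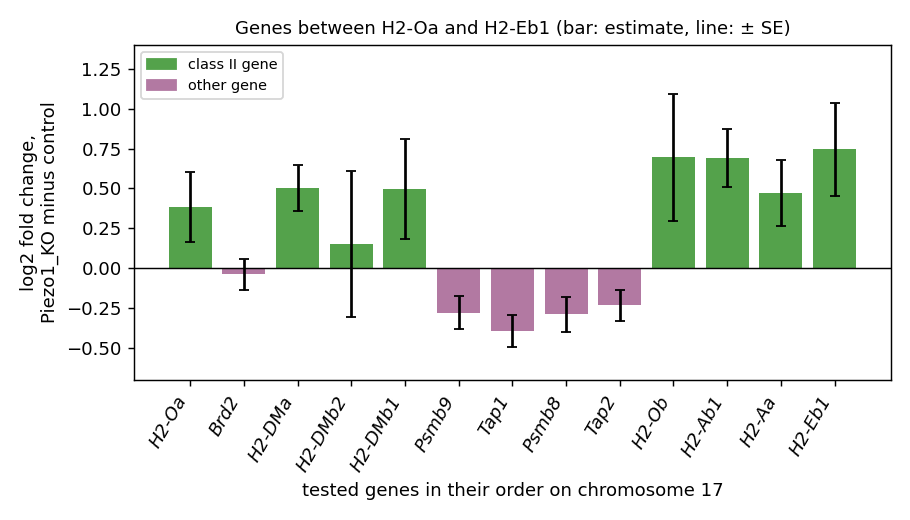
Log2 fold change, Piezo1_KO minus control (vertical axis, bars with ± SE lines), of the 13 tested genes between H2-Oa and H2-Eb1, in their order on chromosome 17. The 8 class II genes are above zero and the 5 other genes below it.

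Genes that control Ciita and the class II promoters had log2 fold changes centred near zero. Of 22 tested, 0 rose, 2 fell and 20 did not pass, 16 were negative and the median log2 fold change was −0.07. Over all tested genes 0.509% passed as lower and 53% were positive. Some of the negative values lay within their SE of zero, such as Creb1 and Ifngr1, both at −0.01 ± 0.10. Irf8, an interferon regulatory factor that acts in myeloid and B cells, fell from a mean of 56.1 ± 1.60 to 25.6 ± 1.64 CPM (SD, n = 3), with an adjusted p of 0.00158 in edgeR.

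The proteins that bind the X and Y boxes did not pass. Rfx5 was at 14.0 ± 4.04 and 15.2 ± 2.80 CPM, Rfxank at 15.4 ± 0.87 and 13.6 ± 1.44 CPM, and Rfxap at 31.7 ± 5.71 and 32.6 ± 1.90 CPM in control and Piezo1_KO (SD, n = 3). These are the RFX subunits. Nfya, a subunit of the Y box factor, was at 8.42 ± 0.688 and 6.35 ± 0.156 CPM (SD, n = 3), without overlap and without passing (adjusted p = 0.341, edgeR). Spi1, the myeloid and B cell factor PU.1, had at most 6 counts in any library and was not tested.

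Endosomal processing genes supply the peptides. Of 14 tested, 1 rose, 0 fell and 13 did not pass, 10 were positive and the median was 0.11. Ctsd, the aspartic protease cathepsin D, rose from a mean of 527 ± 46.4 to 859.6 ± 66.5 CPM (SD, n = 3; log2 fold change 0.71 ± 0.10, adjusted p = 0.0170, edgeR). Leaving out control replicate 1 (0.124) or Piezo1_KO replicate 1 (0.0884), 2 (0.125) or 3 (0.0662) ended that call. Ctss, cathepsin S, which trims the invariant chain, was at 30.1, 33.5 and 33.6 CPM in control and 39.7, 42.6 and 41.3 CPM in Piezo1_KO libraries (log2 fold change 0.35 ± 0.10, adjusted p = 0.160, edgeR). The groups did not overlap for Ctss, nor for Ctsl and Lgmn, 2 further endosomal proteases, at 0.55 ± 0.13 and 0.34 ± 0.09. Ifi30, the thiol reductase GILT, was at 45.3 ± 0.97 and 40.6 ± 5.26 CPM.

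Other ligands of the presenting cell held 1 gene that rose among 10 tested, 0 that fell and 9 that did not pass, with a median of 0.18. Cd48, a ligand of CD2 and CD244, rose from a mean of 185 ± 11.1 to 338 ± 23.8 CPM (SD, n = 3; log2 fold change 0.87 ± 0.09, adjusted p = 0.00542, edgeR), a call that ended when control replicate 1 (0.0626) or Piezo1_KO replicate 2 (0.0549) was left out. Vsir, the inhibitory ligand VISTA, had 0.85 ± 0.17 (adjusted p = 0.0612, edgeR). Cd274, which encodes PD-L1, had −0.71 ± 0.16 (adjusted p = 0.0964, edgeR), and its groups did not overlap. Icosl and Tnfsf4, the latter encoding OX40L, were at 0.25 ± 0.17 and −0.19 ± 0.22. Cd40 had 0 to 7 counts per library in 6 libraries and was not tested.

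The receptors on the other side of the synapse were also measured in these cells. Of 6 tested partners of CD80, CD86, class II or CD74, 0 rose, 1 fell and 5 did not pass, with a median of 0.36. Cd28, the activating receptor of CD80 and CD86, was at 7.24, 10.5 and 7.196 CPM in control and 3.68, 3.01 and 2.52 CPM in Piezo1_KO libraries, and it fell by 1.44 ± 0.25 on the log2 scale (adjusted p = 0.0332, edgeR). It no longer passed when control replicate 1 (0.130) or Piezo1_KO replicate 1 (0.101), 2 (0.196) or 3 (0.157) was left out. Ctla4, the inhibitory receptor of the same ligands, was at 7.55, 8.57 and 4.50 CPM in control and 13.6, 19.3 and 15.3 CPM in Piezo1_KO libraries (log2 fold change 1.21 ± 0.25, adjusted p = 0.0680, edgeR). Neither receptor overlapped between groups, and they lay on opposite sides. Mif and Cd44, a ligand of CD74 and its signalling partner, were at 0.29 ± 0.14 and 0.03 ± 0.09. Cd4 and Lag3, receptors of class II, were not analysed here.

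**Figure D5:**
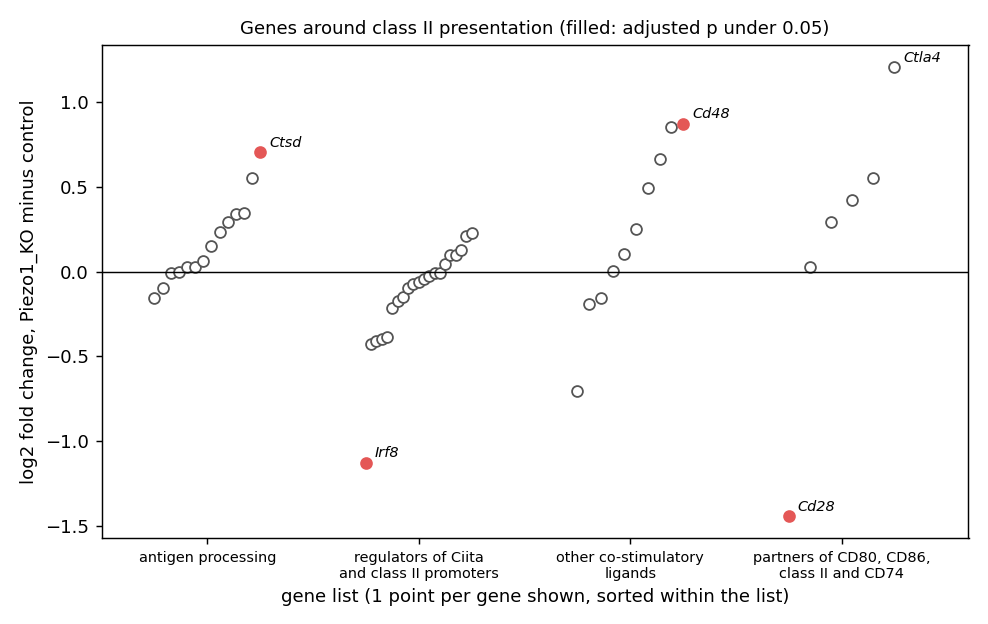
Log2 fold change, Piezo1_KO minus control (vertical axis), of the tested genes in 4 lists around class II presentation, 1 point per gene shown. Filled points passed an adjusted p of 0.05. Irf8 and Cd28 are the filled points below zero and Ctsd and Cd48 those above it, and Ctla4, the highest point, did not pass.

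Among 8648 other tested genes whose log2 CPM averaged 3 or more, the 5 whose level ran most like that of Cd74 over the 6 libraries were Acbd4, Spryd7, Pde4a, Tmem63a and Sh2b1. Pearson's r of log2 CPM with Cd74 lay between 0.95 and 0.967, which describes 6 libraries that differ in depth and in group, and carries no test. None of these 5 passed in the comparison of the groups, with log2 fold changes between 0.11 and 0.39. The 9 genes themselves, and gene models named Gm or Rik, were left out of that pool. Over the same 6 libraries r with Cd74 was 0.944 for H2-Eb1, 0.859 for H2-DMa, 0.827 for H2-Aa and 0.825 for H2-Ab1, and was lower for the other 4.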

How the data were processed

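RNA of sorted, cultured lung ILC2s was profiled on a NextSeq 500, per the labels. The authors deposited estimated counts per gene, unscaled and partly fractional (37.9% to 47.4% of values were not whole, tolerance 1e-09). Per the submitters' processing notes the build was mm10. The aligner and the counting tool were not given in the sources used here. Libraries are rows of the table and were matched to samples by the sample descriptions, and 0 further columns of samples were left aside. Groups and replicate numbers come from the labels.

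Counts were rounded. Genes were kept by filterByExpr (14149 of 18057), scaled by TMM and tested two-sided by edgeR 4.0.16 under R 4.3.3 (glmQLFit and glmQLFTest), with no covariate, with Benjamini-Hochberg adjustment over all tested genes and a threshold of 0.05. The fit was tested on simulated counts. SEs are the log2 fold change divided by the root of the F statistic. Alternatives used RLE scaling, no filter, a stricter filter (1 CPM throughout a group), a replicate block, DESeq2 1.42.0, limma-voom (limma 3.58.1) with sample weights, and each library left out in turn. Positions and exon lengths are from GENCODE M21, and promoters from RefSeq.

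The 9 genes and the 11 gene lists were chosen with earlier results of these data known. Of 152 genes on the lists, 115 were found and 96 tested. Named are Piezo1, the 9 genes, from each list the up to 3 passing genes of smallest p, or where none passed the 1 of smallest p, and the 5 genes most like Cd74. Other genes were named for their role after their values were seen. ILC2 markers had 1 gene that rose (Il17rb) and 2 that fell (Il7r and Icos) of 16 tested. Replicates of a group all differed by more than sampling noise (chi-square per gene 11.1 to 61.3, where 1 is sampling noise). The list counts cover 1 passing gene whose own values are not reported here, in the text or the plot.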

Additional observations from a re-analysis of the deposited data

How the results depend on the processing

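The count of genes past the threshold was 214 with all libraries, 52 with the replicate number as a block, 594 in DESeq2 and 439 in limma-voom, and lay between 33 and 297 with 1 library left out. For the 9 class II genes the count was 0, against 1 in DESeq2, 2 in limma-voom, 0 with the block and 0 to 2 with 1 library left out. For the listed genes it was 10, against 5 with the block, 20 in DESeq2, 19 in limma-voom and 2 to 13 with 1 library left out. The cause of the differences between these fits was not tested. Fits that leave out a library also hold fewer samples. H2-Ab1 had a log2 fold change of 0.69 in DESeq2 and 0.81 in limma-voom, where it passed, and of 0.58 to 0.90 with 1 library left out. H2-Eb1 had 1.17 in limma-voom, where it passed, and Cd80 had 0.96 to 1.46 with 1 library left out. No sign of any of the 9 genes was reversed in the alternatives that gave it a value (12, or 10 for Cd86), and the groups did not overlap in 8 of the 9 genes with RLE scaling and in 7 with plain library size. The stricter filter gave no value for Cd86, and DESeq2 gave it no adjusted p. Same-numbered libraries did not deviate together (correlations of deviations from the group means −0.02, −0.18 and −0.01 for replicates 1, 2 and 3). No library correlated best with its own number, and the numbers were not used as pairs in the main fit. With 3 libraries in each group, these correlations cannot show whether same-numbered libraries share a day or batch. The alternatives for the sign and overlap counts were chosen after seeing the data. Depth limits Ciita, Cd80 and above all Cd86, whose counts lay between 0 and 22.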
